A study of Mus musculus with 12 samples.

Results

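Astrocytes surround brain vessels with endfeet, and 8 genes that handle water, potassium and ions at these endfeet were followed here in sorted glia of the mouse hippocampus: the water channel Aqp4, the potassium channel Kcnj10, the matrix receptor Dag1, Mlc1 and its partner Hepacam, the connexins Gja1 and Gjb6, and the sodium bicarbonate cotransporter Slc4a4. They were given as a written list of genes and matched by symbol to Ensembl identifiers, and all 8 were found in both tables, among 27866 genes listed for the astrocyte-enriched fraction, 30359 for the microglia-enriched fraction and 25442 for both. The study asked what follows when astrocytes carry more adenosine A2A receptor. Male C57Bl6/J mice received AAV2/9 vectors in the CA1 of both sides at 2 months of age, and were sampled 2 months later. The vector coded for the A2A receptor (AAV-A2A) or, in the controls, for GFP (AAV-GFP), in both cases from the GfaABC1D promoter, a short astrocyte promoter, with a WPRE element. Cells of the hippocampi were dissociated and captured on ACSA-2 beads, which bind an astrocyte surface antigen, and the cells that ran through were captured on CD11b beads, which bind microglia. Each of the 4 groups held 3 RNA sequencing libraries, so that 12 libraries were compared. The whole hippocampus was sorted while the vector was placed in CA1, so a library can hold cells that did not receive the vector.

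The endfoot is where astrocytes exchange water and ions with vessels and brain fluid. Aquaporin-4 is held in the endfoot membrane by dystroglycan, which grips the basement membrane outside and the dystrophin scaffold inside, and Kir4.1, the product of Kcnj10, is concentrated at the same place and takes up potassium released by active neurons. MLC1 needs its adhesion partner GlialCAM, the product of Hepacam, to reach the junctions between endfeet, and both take part in chloride balance and cell volume, while the connexins 43 and 30 of Gja1 and Gjb6 join astrocytes into a network through which ions and metabolites spread.

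The promoters of the partners Mlc1 and Hepacam are shown because their ratio shifted the most with the vector of the 4 partner ratios compared in the ACSA-2 fraction. Each window runs from 250 bases before to 50 bases after the annotated start, as listed by RefSeq on GRCm38.p6, is printed 5′ to 3′ on the strand of the gene, and has its CpG dinucleotides in capitals. The Mlc1 window lies on the minus strand at chr15:88978504-88978803 and that of Hepacam on the plus strand at chr9:37367356-37367655.
Mlc1: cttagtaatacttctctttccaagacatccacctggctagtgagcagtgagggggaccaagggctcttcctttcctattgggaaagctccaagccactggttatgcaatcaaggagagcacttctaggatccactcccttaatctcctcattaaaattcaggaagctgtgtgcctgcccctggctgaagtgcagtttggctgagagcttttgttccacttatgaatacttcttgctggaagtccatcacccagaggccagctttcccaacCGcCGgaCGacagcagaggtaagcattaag
Hepacam: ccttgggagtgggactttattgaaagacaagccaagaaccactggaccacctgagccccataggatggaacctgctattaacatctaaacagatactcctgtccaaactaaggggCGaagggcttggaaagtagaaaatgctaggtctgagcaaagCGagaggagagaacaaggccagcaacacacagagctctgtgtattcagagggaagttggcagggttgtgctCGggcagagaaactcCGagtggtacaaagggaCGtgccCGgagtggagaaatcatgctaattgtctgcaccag
The windows held 3 CpG in Mlc1 and 6 in Hepacam, beside a median of 7 over 32851 promoter windows. Of the 8 genes, 7 had a window in the table, 9 windows in all, and their CpG counts went from 3 in Mlc1 and in a second start of Slc4a4 to 50 in the first start of Slc4a4. The cyclic AMP response element TGACGTCA, which CREB binds downstream of Gs-coupled receptors, was in 0 of the 9 windows and in 1.79% of all windows, and the STAT site TTCNNNGAA was in 0 of 9 and in 8.3%. Both motifs read the same on either strand, so that 1 search covered both strands, and neither was found in a window of the 8 genes, so no overlap between them arose.

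The libraries held 33937067 to 49217553 counts on genes in the ACSA-2 fraction and 36098295 to 53206974 in the CD11b fraction. Adora2a, the gene carried by the vector, had 774 to 981 counts in the AAV-GFP and 27303 to 42668 in the AAV-A2A libraries of the ACSA-2 fraction, a log2 FC of 5.02 ± 0.21 (SE, edgeR Padj = 1.6e-05). In the CD11b fraction it had 201 to 318 counts with AAV-GFP and 653 to 1529 with AAV-A2A, also without overlap, a log2 FC of 2.20 ± 0.54 (SE, edgeR Padj = 0.280). In the ACSA-2 fraction 12 astrocyte markers summed to 30280 to 47190 CPM, counts scaled to library size, and 11 microglia markers to 425.2 to 768.8. In the CD11b fraction microglia markers summed to 10170 to 72580 CPM and astrocyte markers to 297.9 to 596.9. The CD11b libraries GFP-2328, GFP-2329 and A2A-2347 stood apart, with 10 choroid plexus markers at 112500, 88860 and 63060 CPM in that order, led by Ttr, against 26.87 to 146 in the other CD11b libraries. The library sizes behind CPM are adjusted by the TMM method within a fraction, and a gene is called when its Benjamini-Hochberg Padj is below 0.05 and its absolute log2 FC above 0.32.

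In the ACSA-2 fraction the endfoot genes did not move as a block with the vector. By CPM, Aqp4 and Mlc1 were higher in every AAV-A2A library than in any AAV-GFP library, Hepacam and Dag1 were lower in every one, and Kcnj10, Gja1, Gjb6 and Slc4a4 overlapped between vectors. Of 8 genes, 0 were called by edgeR, where 3.36% of the 16451 tested genes were called, 3 had an unadjusted p under 0.05 (Aqp4, Dag1 and Hepacam; 13% of all tested genes), and DESeq2 and limma-voom each called 1, Hepacam, where they called 6.85% and 3.6% of all genes with an adjusted p. Groups without overlap in CPM were found for 4 of 8, against 19.6% of all tested genes, with 2 higher and 2 lower, where 8.61% of all genes were higher and 10.9% lower without overlap. Set against the summed astrocyte markers of the same library, Gja1 was lower in every AAV-A2A library (5.24 to 6.18% against 6.50 to 7.27%). On that scale Dag1 overlapped (0.156 to 0.315% against 0.290 to 0.348%), and the other genes were sorted as by CPM. How often other genes lack overlap on that scale was not computed. The median log2 FC was -0.15 over the 8 genes and 0.02 over all tested genes. The 0 calls by edgeR do not show that the 8 genes did not differ. In sorted bulk RNA, fewer cells of a type and less RNA per cell cannot be told apart.

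**Figure D1:**
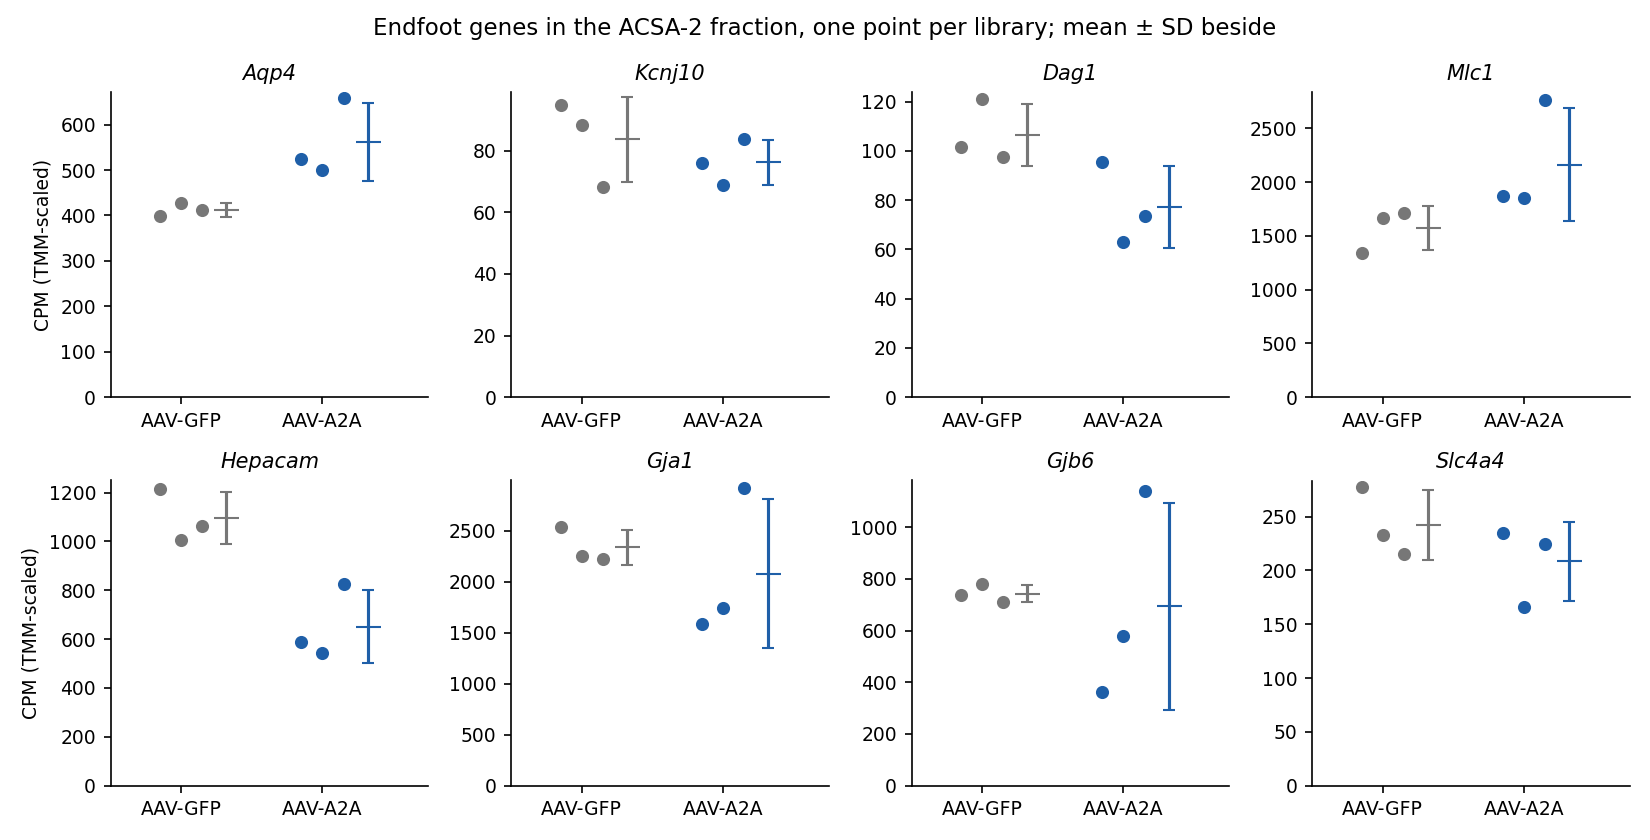
Level of the 8 endfoot genes in the ACSA-2 fraction. Each panel is a gene, the y axis is TMM-scaled CPM and starts at 0, grey points are the 3 AAV-GFP and blue points the 3 AAV-A2A libraries, and the bar beside them is the mean with its SD. Aqp4 and Mlc1 lie higher and Hepacam and Dag1 lower in all AAV-A2A libraries, and the blue points of Gjb6 spread from 363.1 to 1138 CPM.

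Aqp4 codes for aquaporin-4, the main water channel of the brain. Its level was 397.9, 428.0 and 411.4 CPM with AAV-GFP and 524.7, 500.5 and 658.8 CPM with AAV-A2A. The AAV-GFP libraries lay within a narrow band, with a CV of 3.65% beside a median of 14.4% over genes above 50 CPM, and all 3 AAV-A2A libraries lay above it. The log2 FC was 0.44 ± 0.17 (SE, 95% interval 0.07 to 0.82, Padj = 0.279, edgeR), which does not pass the threshold. No exon of Aqp4 is shared with another annotated gene, although an antisense gene lies within its span, and the strand setting of the counting is not given in the sources used here.

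Kcnj10 (chr1:172341210-172374085, plus strand, as annotated on GRCm38 like the positions of the genes that follow) codes for Kir4.1, the inward rectifier that sets the resting potential of astrocytes. It was measured at 94.75, 88.22 and 68.28 CPM with AAV-GFP and at 76.11, 68.97 and 83.65 CPM with AAV-A2A. The groups overlapped throughout, and the log2 FC of -0.14 ± 0.19 (SE) had a 95% interval from -0.56 to 0.29 (Padj = 0.871, edgeR).

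Dag1 (chr9:108204634-108263958, minus strand) codes for both subunits of dystroglycan, the receptor for laminin and agrin to which the aquaporin-4 scaffold is tied. It stood at 101.4, 120.9 and 97.34 CPM in AAV-GFP and at 95.33, 62.91 and 73.46 CPM in AAV-A2A libraries. The groups did not overlap, but the highest AAV-A2A library came within a few CPM of the lowest AAV-GFP library, and the log2 FC was -0.46 ± 0.20 (SE, Padj = 0.375, edgeR).

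Mlc1 (chr15:88955884-88979007, minus strand) codes for the membrane protein whose loss causes megalencephalic leukoencephalopathy with subcortical cysts. It was read at 1336, 1663 and 1711 CPM with AAV-GFP and at 1867, 1854 and 2766 CPM with AAV-A2A. All AAV-A2A libraries lay above all AAV-GFP libraries, and the library A2A-313 was far above the rest. The log2 FC was 0.46 ± 0.21 (SE, 95% interval -0.01 to 0.93, Padj = 0.396, edgeR), and 0.24 without A2A-313.

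Hepacam (chr9:37367351-37386575, plus strand) codes for GlialCAM, the adhesion molecule that carries MLC1 and the ClC-2 chloride channel to cell junctions. The control libraries had 1214, 1008 and 1064 CPM and those with AAV-A2A 586.5, 544.2 and 824.5 CPM. The gap between the groups, from 824.5 to 1008 CPM, was the opposite in direction to that of its partner Mlc1, and A2A-313 was again the highest AAV-A2A library. The mean was 1095 ± 107 CPM (SD, n = 3) with AAV-GFP and 652 ± 151 CPM (SD, n = 3) with AAV-A2A, a log2 FC of -0.75 ± 0.20 (SE, 95% interval -1.20 to -0.30, Padj = 0.0908, edgeR). Hepacam was thus not called here, but it was called in 5 of 14 alternatives, with DESeq2 (Padj = 0.00908), scaling by total counts alone, a minimum of 10 counts in every library, limma-voom, or without A2A-313 (edgeR Padj = 0.0261), and over the 14 alternatives the Padj went from 0.00908 to 0.397.

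Gja1 (chr10:56377330-56402513, plus strand) codes for connexin 43, the most abundant astrocyte gap junction protein. It stood at 2535, 2255 and 2219 CPM with AAV-GFP and at 1586, 1739 and 2915 CPM with AAV-A2A. Gjb6 (chr14:57123303-57133611, minus strand), which codes for connexin 30, stood at 737.9, 778.7 and 711.1 CPM with AAV-GFP and at 363.1, 578.5 and 1138 CPM with AAV-A2A. For both connexins A2A-309 and A2A-310 lay below and A2A-313 above every AAV-GFP library. The CV over the AAV-A2A libraries was 57.7% for Gjb6 and 35.0% for Gja1, against 4.58% and 7.41% over the AAV-GFP libraries, and the log2 FC were -0.10 ± 0.35 (SE, Padj = 0.960) for Gjb6 and -0.17 ± 0.24 (SE, Padj = 0.872, edgeR) for Gja1. Without A2A-313 they were -0.66 (Padj = 0.215) and -0.50 (Padj = 0.160, edgeR), and over the 14 alternatives the Padj went up to 0.9995 for both. A2A-313 also had the highest sum of astrocyte markers, 47190 CPM against 30280 to 34920 in the other ACSA-2 libraries, and its part in these values was not tested beyond leaving it out.

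Slc4a4 (chr5:88886818-89239653, plus strand) codes for NBCe1, which couples bicarbonate and sodium transport and buffers the acid shifts that come with potassium. It was measured at 278.0, 232.6 and 215.1 CPM with AAV-GFP and at 234.4, 165.9 and 224.8 CPM with AAV-A2A. The groups overlapped, with a log2 FC of -0.22 ± 0.19 (SE, Padj = 0.756, edgeR).

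**Figure D2:**
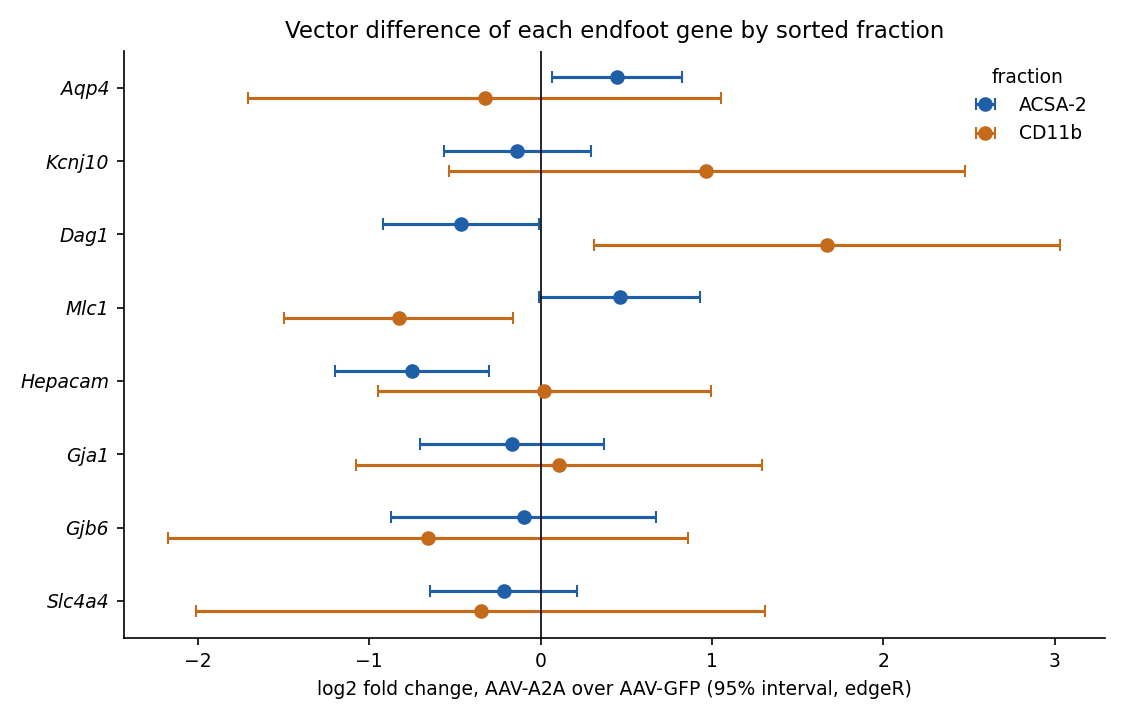
log2 FC of AAV-A2A over AAV-GFP for each endfoot gene in the ACSA-2 (blue) and CD11b (orange) fraction, with the 95% interval of the edgeR fit. The interval of Hepacam in the ACSA-2 fraction, from -1.20 to -0.30, lies farthest from 0 among the ACSA-2 values, and those of Aqp4 and Dag1 also leave out 0. The intervals of the CD11b fraction are wider for every gene, and those of Dag1, from 0.31 to 3.03, and Mlc1, from -1.49 to -0.16, leave out 0.

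Since genes of 1 library share its scaling and cell content, the genes whose proteins work together were also compared as ratios of CPM within a library. The ratio of Mlc1 to Hepacam was 1.1, 1.65 and 1.61 with AAV-GFP and 3.18, 3.41 and 3.36 with AAV-A2A in the ACSA-2 fraction. The AAV-A2A libraries were nearly alike, also A2A-313, in which both genes were higher than in the other AAV-A2A libraries. The shift was 1.21 on the log2 scale (exact permutation test, two-sided, p = 0.1, the smallest that 3 against 3 libraries allow). The ratios of Aqp4 to its neighbours at the endfoot were also higher with AAV-A2A. The ratio of Aqp4 to Kcnj10 was 4.20, 4.85 and 6.02 with AAV-GFP and 6.89, 7.25 and 7.87 with AAV-A2A, a shift of 0.56, and that of Aqp4 to Dag1 shifted by 0.91 from a geometric mean of 3.89 to 7.32, both without overlap (exact permutation test, p = 0.1 for each). The ratio of Gja1 to Gjb6 had a geometric mean of 3.14 with AAV-GFP and 3.23 with AAV-A2A (exact permutation test, p = 0.9), although both connexins varied widely among the AAV-A2A libraries. Adjusted over the 4 pairs in 2 fractions, the lowest p was 0.16 (exact permutation test). How often pairs of other genes lack overlap in this way was not computed. Mlc1, Hepacam, Aqp4 and Dag1 lacked overlap already as single genes in the ACSA-2 fraction.

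**Figure D3:**
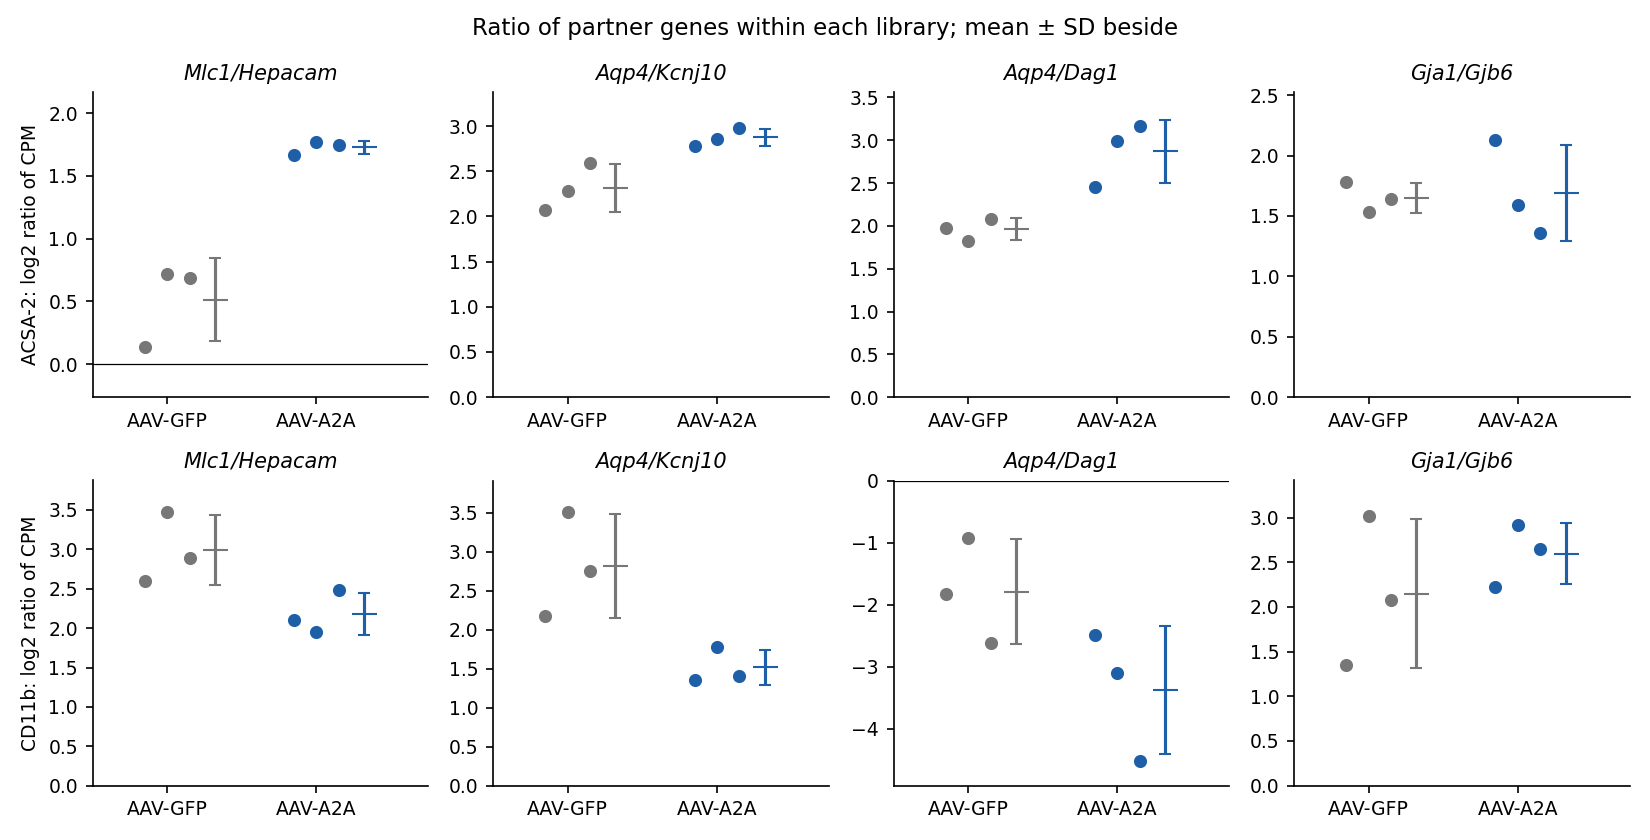
log2 ratio of CPM of partner genes within each library, in the ACSA-2 (top) and CD11b (bottom) fraction, with AAV-GFP in grey, AAV-A2A in blue and the mean ± SD beside the points. The Mlc1/Hepacam ratio of the 3 AAV-A2A libraries of the ACSA-2 fraction lies between 1.67 and 1.77, above the AAV-GFP libraries at 0.14 to 0.72, and in the CD11b fraction its AAV-A2A libraries lie below the AAV-GFP libraries.

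Levels per kilobase were taken over all annotated exons of a gene, not over the length of the transcript expressed. On this scale Mlc1 was the highest of the 8 genes in ACSA-2 cells with AAV-GFP, at 569 ± 72.7 CPM per kb (SD, n = 3), followed by Hepacam at 333 ± 33.9, Gjb6 at 282 ± 11.6 and Gja1 at 232 ± 17.9. Aqp4 stood lower, at 67.2 ± 2.09 CPM per kb, and Slc4a4 at 22.7 ± 3.11, Dag1 at 17.0 ± 1.91 and Kcnj10 at 15.7 ± 2.59 closed the order. Each step of this order was found in 3 of 3 AAV-GFP libraries, except that Dag1 was above Kcnj10 in 2 of 3, and that pair did not differ beyond its spread. The order depends on the exon lengths, such as 10257 bases for Gja1 and 2801 for Mlc1. By CPM scaled over all 12 libraries, Gja1 came first with AAV-GFP at 2375 ± 184 (SD, n = 3). Mlc1 followed at 1595 ± 204 and Hepacam at 1113 ± 114. With AAV-A2A, Mlc1 stayed first at 768 ± 174 CPM per kb and Hepacam came at 194 ± 42.1, below the means of Gjb6 and Gja1, but it was above Gjb6 in 1 of 3 libraries, so the order of these 3 genes was not fixed within the group.

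**Figure D4:**
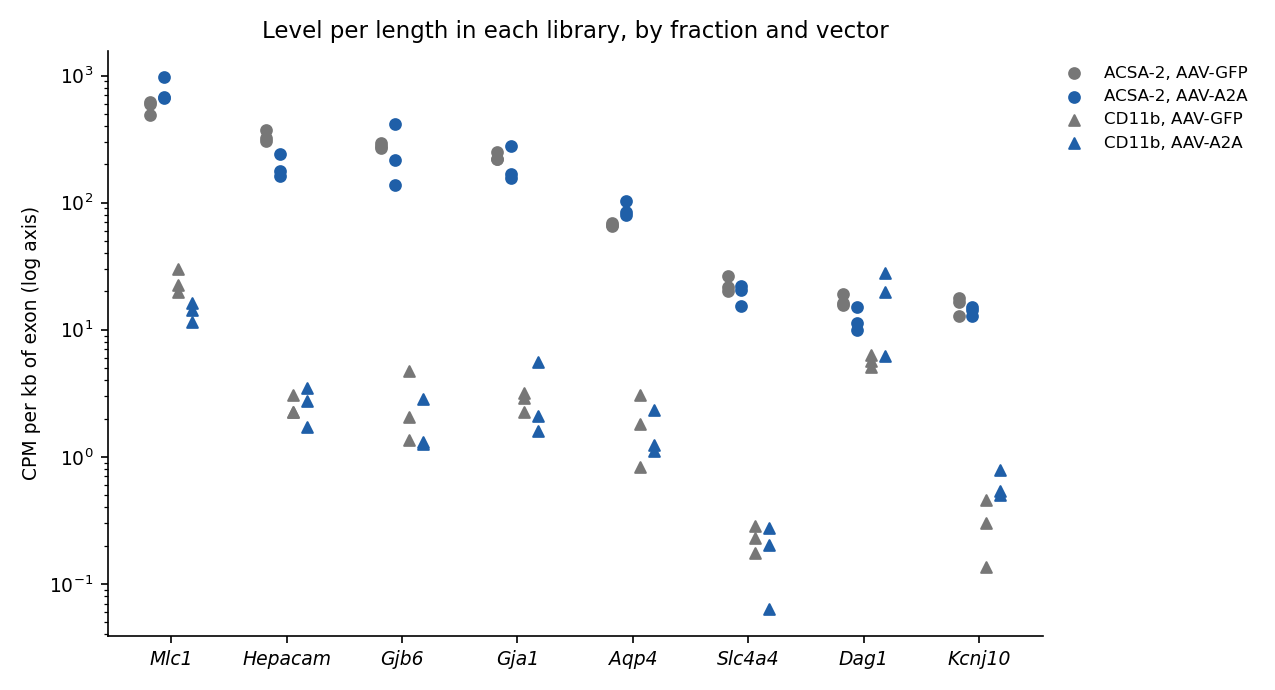
CPM per kb of exon on a log axis for each gene and library, scaled over all 12 libraries, with circles for the ACSA-2 and triangles for the CD11b fraction, grey for AAV-GFP and blue for AAV-A2A. Dag1 is the gene for which both fractions meet, with AAV-A2A libraries at 9.89 to 15.1 CPM per kb in ACSA-2 and 6.22 to 28.2 in CD11b cells.

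Around the 8 genes, 9 lists held 92 genes of the structures they work in, and 80 of these were tested in the ACSA-2 fraction, with 4 called lower and 1 called higher with AAV-A2A (0.176% of all tested genes were called higher and 3.19% lower). In the dystrophin complex, 1 of the 9 tested members analysed here was called. Dmd, the dystrophin gene whose short Dp71 product is the astrocyte form, had 676.4, 595.4 and 561.4 CPM with AAV-GFP and 254.3, 227.2 and 177.3 CPM with AAV-A2A, and fell by 1.48 on the log2 scale (SE 0.19, edgeR Padj = 0.0034). It was the 1 of these called by edgeR, DESeq2 and limma-voom alike. The median log2 FC over these 9 genes was 0.12.

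On the outer side of dystroglycan, Hspg2, which codes for the basement membrane proteoglycan perlecan, fell by 2.48 on the log2 scale (SE 0.35, Padj = 0.00505, edgeR), from 32.73, 41.44 and 31.37 CPM to 7.431, 7.923 and 3.566 CPM. It was the 1 called gene of 13 tested matrix ligands, of which 11 had a negative and 2 a positive log2 FC (51.6% of all tested genes were positive), with a median of -0.79, and DESeq2 called 3 of them. At an unadjusted p under 0.05 (edgeR) there were 8 of the 13 (13% of all tested genes). Groups did not overlap for 7 of them (19.6% of all tested genes). Lamb2, the ligand with the highest level per kb in the AAV-GFP libraries, had a log2 FC of -0.05 ± 0.24 (SE, Padj = 0.971), and Lamc1, that with the most CPM in the AAV-GFP libraries, one of -1.18 ± 0.34 (SE, Padj = 0.119, edgeR). Vessel cells make many of these ligands. The 11 endothelial and mural markers had a median log2 FC of -0.49 with 1 called, Flt1, and summed to 4720 to 4961 CPM with AAV-GFP and 3546 to 5129 with AAV-A2A, and 8 fibroblast markers summed to 4081 to 4443 and 3255 to 4547 CPM. Vtn is in both marker lists and is the most abundant gene of each in this fraction, so their sums share it and are not independent. The part of these markers in the values of the ligands was not tested. Of the 11 tested enzymes that build the glycan by which dystroglycan holds its ligands, Pomt2, an O-mannosyltransferase, was called and fell by 1.05 on the log2 scale (SE 0.23, Padj = 0.0406, edgeR), from 47.7 ± 9.49 to 23.1 ± 2.78 CPM (SD, n = 3). Rxylt1, the enzyme with the highest level per kb, had a log2 FC of 0.12 ± 0.21 (SE, Padj = 0.909, edgeR).

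The sodium pump removes sodium in exchange for potassium and works beside Kir4.1 in potassium clearance. Of the 7 tested genes of its list, 1 was called lower and 1 higher, where 3.19% and 0.176% of all tested genes were. At an unadjusted p under 0.05 (edgeR) there were 4 of the 7 (13% of all tested genes). Groups did not overlap for 3 of them (19.6% of all tested genes). Their log2 FC went from -1.47 to 1.70, with 5 positive, 2 negative and a median of 0.14. Atp1b2, the glial beta subunit, had 1843, 1460 and 1409 CPM with AAV-GFP against 808.3, 677.4 and 959.1 CPM with AAV-A2A, and fell by 0.95 on the log2 scale (SE 0.20, Padj = 0.0294, edgeR). Fxyd7, a small regulator of the pump, rose by 1.70 ± 0.36 on the log2 scale (SE, Padj = 0.0341, edgeR) from a low level of 3.86 ± 0.51 to 12.5 ± 3.14 CPM (SD, n = 3). DESeq2 and limma-voom called both genes, and DESeq2 also called Fxyd1, named after its call was seen.

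**Figure D5:**
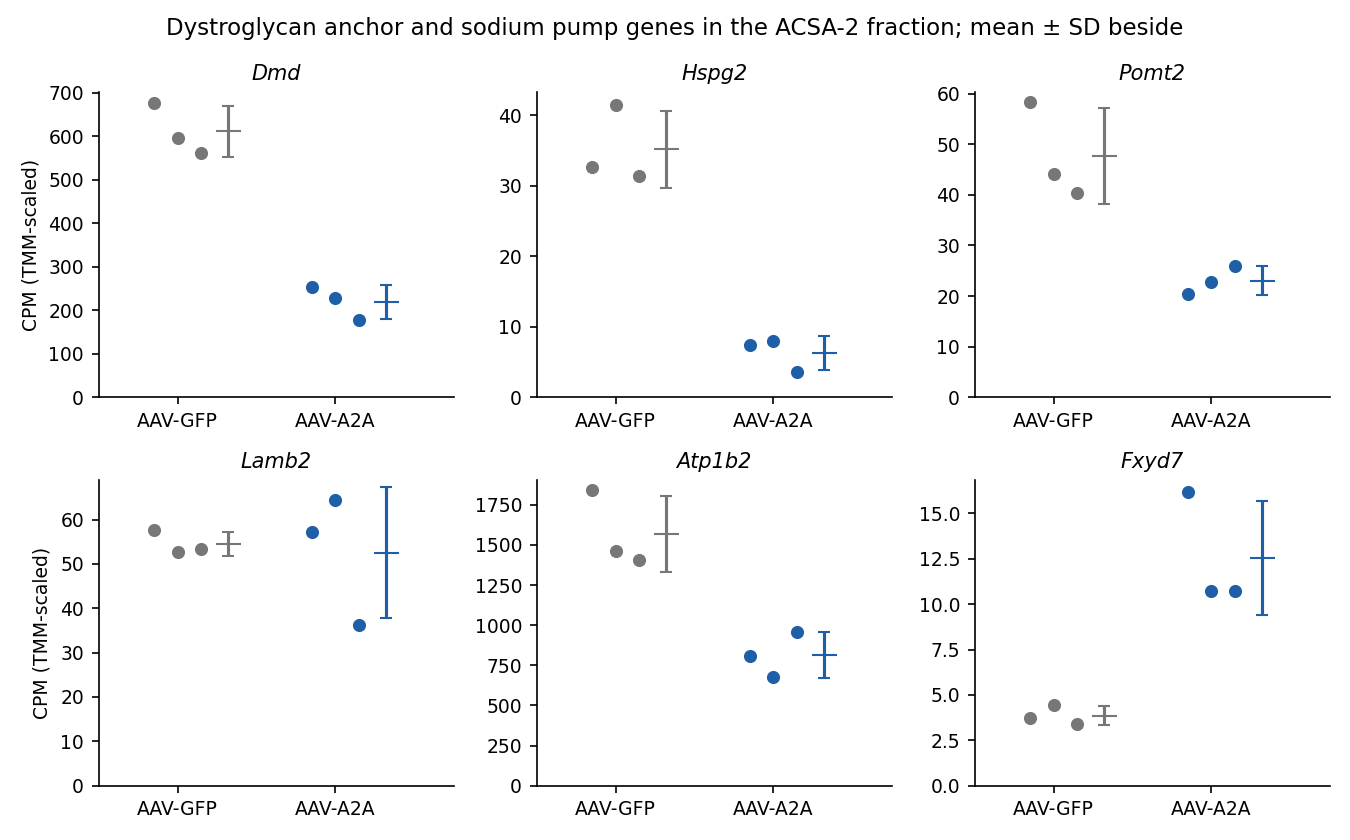
Dmd, Hspg2, Pomt2 and Lamb2 of the dystroglycan anchor and Atp1b2 and Fxyd7 of the sodium pump in the ACSA-2 fraction, as TMM-scaled CPM on axes that start at 0, with AAV-GFP in grey, AAV-A2A in blue and the mean ± SD beside the 3 points of a group. Dmd, Hspg2, Pomt2 and Atp1b2 are lower and Fxyd7 is higher in all AAV-A2A libraries, and the points of Lamb2 overlap.

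Dmd and Hspg2 were called in 13 of 14 alternatives, the exception being a fit of all 12 libraries together, with a Padj of 0.107 and 0.335. Their lowest Padj over the alternatives were 2.6e-11 and 2.9e-10, both with DESeq2. Pomt2 and Fxyd7 were called in 7 and Atp1b2 in 8 of 14. None of these 3 was called in that fit, and with 1 library left out Pomt2 and Fxyd7 were called in 0 of 6 fits and Atp1b2 in 1, the one without A2A-313 (edgeR Padj = 0.0284). Their log2 FC over the 14 alternatives went from -1.16 to -0.89 for Pomt2, from -1.09 to -0.83 for Atp1b2 and from 1.47 to 1.81 for Fxyd7. In 1 of the 14, the same fit is called by Padj without the log2 FC threshold, and there no call can be lost.

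The other 5 lists held 0 called genes by edgeR and by limma-voom, and DESeq2 called 1 potassium channel, Kcnj9, and 1 connexin, Gjb2, both named after their calls were seen. At an unadjusted p under 0.05 there were 1 of 7 potassium channels, 0 of 9 chloride and volume partners of MLC1, 2 of 9 other connexins and pannexins, 0 of 4 other aquaporins and 1 of 11 bicarbonate and acid-base genes, 4 of 40 in all, against 13% of all tested genes. Of the genes with the highest level per kb in each list, Kcnj8 had a log2 FC of -0.07 ± 0.17 (SE), Slc12a4 of -0.40 ± 0.23, Gja4 of -0.02 ± 0.19, Aqp11 of 0.42 ± 0.21 and Car2 of 0.20 ± 0.21, with an edgeR Padj from 0.470 to 0.985. The fraction also held endothelial and mural markers, at 4720 to 4961 CPM with AAV-GFP and 3546 to 5129 with AAV-A2A. Which cells these transcripts came from was not tested.

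Between the fractions 7 of the 8 genes marked the astrocyte sort in every library, and Dag1 did so with AAV-GFP alone. With AAV-GFP all 8 were called higher in ACSA-2 than in CD11b cells, where 12.7% of the 16980 tested genes were called higher. The log2 FC was 7.04 ± 0.35 (SE, Padj = 0.000237) for Hepacam, 6.69 ± 0.60 for Gjb6, 6.63 ± 0.33 for Slc4a4, 6.38 ± 0.35 for Gja1, 5.71 ± 0.52 for Kcnj10, 5.14 ± 0.53 for Aqp4, 4.56 ± 0.34 for Mlc1 and 1.58 ± 0.23 (Padj = 0.00502, edgeR) for Dag1. The fractions were not tested with AAV-A2A, where Dag1 stood at 12.1 ± 2.71 CPM per kb in ACSA-2 and at 18.1 ± 11.1 in CD11b cells (SD, n = 3), with overlap. Each fraction came as its own table, so the cell type and the table cannot be told apart in this comparison. Set against the sum of astrocyte markers in the same library, Dag1 made up 0.156 to 0.348% in ACSA-2 and 6.64 to 46.6% in CD11b libraries, and Mlc1 3.83 to 6.17% and 8.08 to 15.6%. For both genes the fractions did not overlap. The shares of the other 6 genes overlapped between the 6 libraries of each fraction, as for Gja1, at 5.24 to 7.27% in ACSA-2 and 5.29 to 10.2% in CD11b libraries.

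In the CD11b fraction, where the 8 genes summed to 113.8 to 277.3 CPM against 5332 to 8684 in the ACSA-2 fraction, 0 of 8 genes and 0 of all 16949 tested genes (0%) were called by edgeR between vectors. At an unadjusted p under 0.05 there were 2 of the 8, Dag1 and Mlc1, and 2704 of all genes (16%). DESeq2 called 455 (2.46% of genes with an adjusted p) and limma-voom 0 genes, and neither called any of the 8. A count of 0 calls does not show that the genes did not differ. The summed markers of other cells did not overlap between the vectors in this fraction for erythrocytes and neurons. The 5 erythrocyte markers, led by Hbb-bs, summed to 987.8 to 6137 CPM with AAV-GFP and 61.58 to 242 with AAV-A2A, and the 10 neuron markers, led by Camk2a, to 29.76 to 230.2 and 6.574 to 16.8 CPM, with 0 to 1 and 0 to 3 neuron markers at 0 counts in a library. DESeq2 called 4 of the first and 3 of the second list, edgeR 0, and their part in the values of the 8 genes was not tested. Mlc1 was the 1 gene of 8 without overlap (23.4% of all tested genes, 10.9% lower), at 65.68, 87.07 and 53.91 CPM with AAV-GFP and 38.21, 43.28 and 35.04 CPM with AAV-A2A. All AAV-A2A libraries lay below, the opposite of the ACSA-2 fraction, with a log2 FC of -0.83 ± 0.28 (SE, Padj = 0.282, edgeR), or -0.40 without the 3 libraries rich in choroid plexus markers, which leaves 1 AAV-GFP library.

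Dag1 had 42.56, 37.06 and 31.28 CPM with AAV-GFP and 37.77, 121.3 and 194.3 CPM with AAV-A2A in the CD11b fraction. A2A-2344 and A2A-2347 were high and A2A-2343 lay among the AAV-GFP libraries, and the log2 FC was 1.67 ± 0.57 (SE, Padj = 0.282, edgeR). Of these libraries A2A-2347 was rich and A2A-2344 poor in choroid plexus markers, and without the 3 rich libraries the log2 FC was 1.35. The 13 matrix ligands of dystroglycan summed to 107.6 CPM in A2A-2343, 679.4 in A2A-2344 and 891.5 in A2A-2347 and to 140.2 to 277.2 CPM with AAV-GFP, so they were high in the same libraries as Dag1. With 12 of 13 positive (47.9% of all tested genes) and a median log2 FC of 1.48, 0 of the ligands were called by edgeR, DESeq2 or limma-voom and 3 had an unadjusted p under 0.05.

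Aqp4 stood at 11.91, 19.50 and 5.074 CPM with AAV-GFP and at 6.649, 14 and 8.434 CPM with AAV-A2A, a log2 FC of -0.33 ± 0.58 (SE, Padj = 0.804, edgeR). Its value turned to 1.03 without the 3 rich libraries. The log2 FC of the remaining genes went from -0.66 for Gjb6 to 0.97 for Kcnj10, with a Padj of at least 0.476 (edgeR).

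The ratios of Mlc1 to Hepacam and of Aqp4 to Kcnj10 and to Dag1 shifted downwards in the CD11b fraction, against upwards in the ACSA-2 fraction. The ratio of Mlc1 to Hepacam was 6.07, 11.1 and 7.39 with AAV-GFP and 4.30, 3.87 and 5.58 with AAV-A2A, a shift of -0.81, and that of Aqp4 to Kcnj10 shifted by -1.30 from a geometric mean of 7.04 to 2.86 (exact permutation test, p = 0.1 for each, without overlap). The ratio of Aqp4 to Dag1 shifted by -1.59 with overlapping groups and that of Gja1 to Gjb6 by 0.45 (exact permutation test, p = 0.2 and 0.5). Without the 3 libraries rich in choroid plexus markers the shift of Aqp4 to Dag1 was -0.19, and it was -1.01 without A2A-2347 alone, while those of Mlc1 to Hepacam and Aqp4 to Kcnj10 were -0.86 and -1.19 without the 3. The lowest counts behind these ratios were 28 for Kcnj10, 200 for Aqp4 and 286 for Hepacam, all in GFP-2331, and 122 for Gjb6 in A2A-2343.

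The difference of the vector effect between fractions was itself tested in a fit of all 12 libraries. Of 18602 tested genes 0.403% were called, and 0 of the 8 endfoot genes, with 3 at an unadjusted p under 0.05 (19.6% of all tested genes). The values of these were -2.16 ± 0.60 for Dag1 (SE, Padj = 0.101), 1.22 ± 0.41 for Mlc1 (Padj = 0.145) and -1.18 ± 0.53 for Kcnj10 (Padj = 0.243, edgeR). DESeq2 called Dag1 (Padj = 0.0260) and Mlc1 (Padj = 0.0255), where it called 9.02% of all genes with an adjusted p, limma-voom called 0 of the 8 and 0.478% of all genes, and over the 20 alternatives the Padj went from 0.00894 to 0.393 for Dag1 and from 0.0255 to 0.4999 for Mlc1. Of the genes in the 9 lists, Pomt2 was called, at -2.64 ± 0.41 (SE, Padj = 0.0439, edgeR). It was lower with AAV-A2A in ACSA-2 cells and had a log2 FC of 1.55 ± 0.34 (SE, edgeR Padj = 0.280) in CD11b cells. Between vectors DESeq2 called Pomt2 in both fractions, where it called 6.85% and 2.46% of genes with an adjusted p, and limma-voom in ACSA-2 cells alone.

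Over the 12 libraries 7 of the 8 genes followed a shared pattern, with a Pearson r of log2 CPM with the mean of the other 7 from 0.981 for Mlc1 to 0.997 for Gja1, and Dag1 had 0.407. The 12 points fall into 2 fractions, whose libraries did not overlap for these 7 genes and overlapped for Dag1, so these values describe that gap. By the same measure, the genes most like the mean of the 8 among 3552 compared were Acsl3 (r = 0.997), a fatty acid activating enzyme, Mmd2 (r = 0.996) and the G protein subunit gene Gnao1 (r = 0.996). The compared genes were chosen by a mean of at least 50 CPM in the ACSA-2 AAV-GFP libraries, and their r likewise describes the gap between fractions.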

How the data were processed

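Reads were sequenced on Illumina HiSeq from SMART-Seq v4 cDNA tagmented with Nextera XT. The authors trimmed them with cutadapt 1.10, aligned them to mm10 with STAR 2.5.3 and counted uniquely aligned, unambiguous reads per Ensembl gene with HTSeq 0.6.1p1, and deposited raw counts in 1 table per fraction. Counts are of PCR-amplified reads without molecular identifiers. The strand setting is not given in the sources used here. In all, 25 unnamed columns of the tables held no value and were not used. Positions and exon lengths are those of GENCODE M21 on GRCm38, and promoter sequences those of RefSeq.

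Vectors were compared within a fraction in edgeR 4.0.16 and R 4.3.3 (robust quasi-likelihood fit, TMM scaling, filterByExpr), and p-values were adjusted over all tested genes. The fractions were compared in the AAV-GFP libraries, and the difference of vector effects as an interaction over 12 libraries. Log2 ratios of partner genes used a prior count of 2 and the exact permutation test. The script was tested on simulated counts, with changes set to 2 on the log2 scale. In the ACSA-2 comparison about as many of these passed the threshold as did not, and in the others they passed rarely or never. The log2 FC of the endfoot genes between vectors in the ACSA-2 fraction went from -0.75 to 0.46, and changes of that size were not simulated. Alternatives were DESeq2 1.42.0, limma-voom (limma 3.58.1), other scaling, filters and thresholds, and each library left out. No library pair of a group agreed within sampling noise. The study gives 3 animals per group for the astrocyte data. For the CD11b libraries the labels give a number and no source used here ties each to 1 mouse, so their p-values measure the spread between these libraries.

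The 8 genes, the lists around them and the tests were chosen with earlier results of these data known. Named genes are the 8, Adora2a, the called genes of each pathway list, its most abundant gene (per kb, and by CPM for Lamc1, in AAV-GFP libraries), leading markers, and the 3 genes most like the mean of the 8 among those with a mean of at least 50 CPM in the ACSA-2 AAV-GFP libraries. Some genes of the lists are not reported here. Flt1 was named after its value was seen. Figures were drawn with matplotlib 3.10.9.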

Additional observations from a re-analysis of the deposited data

Results flagged for a closer look

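The 3 flagged cases had vector differences of opposite direction in the fractions, and the difference between fractions was tested for Pomt2 alone. For the ratio of Mlc1 to Hepacam the AAV-A2A libraries lay above all AAV-GFP libraries in the ACSA-2 fraction and below all of them in the CD11b fraction, and the shifts of 1.21 and -0.81 on the log2 scale were 2.02 apart. For the ratio of Aqp4 to Kcnj10 the shifts of 0.56 and -1.30 were 1.86 apart in the same way. The difference of these ratios between the fractions was not tested. In the CD11b fraction Kcnj10 had as few as 28 counts in a library, and Hepacam had 286 or more. Pomt2 passed the interaction test at -2.64 (Padj = 0.0439, edgeR), a call that held in 7 of 20 alternatives. Groups held 3 libraries each, which is too few to look for single libraries that lie apart from their group by a fixed rule.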

How the results depend on the processing

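The 8 genes and their pathway lists were compared under alternatives of tool, scaling, filter and threshold and with each library left out. The alternative of threshold drops the log2 FC limit from the same edgeR fit, so its values cannot differ and no call can be lost in it. Of 512 values of the 8 genes over all comparisons, 480 kept their direction and their side of the threshold, 8 gained a call and 24 changed sign. Of 90 values of the called list genes 55 kept their call and 35 lost it, and of 60 partner ratios 58 kept their direction. With AAV-GFP, all 8 genes stayed called higher in the ACSA-2 than in the CD11b fraction under all 15 alternatives. The cause of the changes below was not tested.

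In the ACSA-2 fraction the 553 called genes became 1263 with DESeq2 (271 higher and 992 lower), 156 in a fit of all 12 libraries and 272 to 448 with 1 library left out (272 without GFP-306, 295 without A2A-310, 330 without A2A-313 and 341 without GFP-307). Of the 8 genes, 1, Hepacam, was called with DESeq2, with total counts, with at least 10 counts in every library and with limma-voom, and 0 to 1 when a library was left out, the 1 being without A2A-313. Gjb6 went from -0.66 to 0.21 on the log2 scale when a library was left out, with the positive values 0.21 without A2A-309 and 0.02 without A2A-310, and the log2 ratio of Gja1 to Gjb6 from -0.18 to 0.21.

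In the CD11b fraction the 0 called genes became 455 with DESeq2 and 3 without the libraries rich in choroid plexus markers, an alternative chosen after seeing the data. There Hepacam changed sign to -0.12 with total counts, -0.064 with at least 10 counts in every library and -0.038 with limma-voom, Gja1 to -0.015 and -0.099 with total counts and limma-voom, and Aqp4 to 1.03 without the choroid plexus-rich libraries. With 1 library left out Aqp4 went from -0.71 to 0.19, Hepacam from -0.19 to 0.23, Gja1 from -0.59 to 0.44, Gjb6 from -1.10 to 0.078 and Slc4a4 from -0.87 to 0.060. Between the fractions 6792 genes were called with DESeq2 and 1927 to 5836 with 1 library left out, against 4377.

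For the difference of vector effects the 75 called genes became 1695 with DESeq2, 10 with RLE size factors, 0 with total counts, 345 with at least 10 counts in every library, 0 without the choroid plexus-rich libraries and 0 to 1286 with 1 library left out (1286 without GFP-2331, 830 without A2A-2343 and 41 without A2A-309), so this count rests on single libraries. Of the 8 genes 2 were called with DESeq2 and 0 to 1 with 1 library left out, the 1 being Dag1 without A2A-2343. Aqp4 changed to -0.64 and Gjb6 to -0.16 without the choroid plexus-rich libraries, and with 1 library left out Gja1 went from -0.67 to 0.38, Gjb6 from -0.22 to 0.94 and Slc4a4 from -0.31 to 0.55.

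With 3 libraries a group, the exact test of a single ratio cannot go below 0.1. The lowest counts of the members in the CD11b fraction were 24 for Slc4a4 in A2A-2343 and 28 for Kcnj10 in GFP-2331. No paired analysis was possible because the groups share no replicate number. A setting that leaves 1 library in a group takes its spread from the other groups.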
